A study of Mus musculus with 4 samples.

Results

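The peroxisome is a single-membrane organelle in which very long chain, branched and otherwise awkward fatty acids are shortened or modified, ether lipids are begun, and hydrogen peroxide is made and destroyed. Its proteins are made in the cytosol and carried in by peroxins, the products of the Pex genes, which also insert its membrane proteins and drive its division. In fat cells peroxisomes multiply as lipid droplets form, and many of their genes are targets of the PPAR nuclear receptors.

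Described here are 33 genes of peroxisome biogenesis and peroxisomal lipid metabolism, chosen by function as a fixed list, out of 12393 genes measured on the arrays. The members' probe sets are those whose platform annotation names exactly 1 gene, that gene being on the list. Of the 22626 probe sets, 53 met that rule. They cover 31 genes, namely 10 of 11 Pex genes, 19 of 20 enzymes and both listed Abcd transporters. Pex10 and Agps had no such probe set and are not analysed here. A gene with several probe sets (14 of the 31) is represented by the brightest over all arrays, and 17 genes have 1 probe set. The list was drawn up with earlier results of these data known.

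Total RNA came from fully differentiated 3T3-F442A adipocytes, a mouse preadipocyte line that turns into fat cells in culture, and was hybridised to 4 Affymetrix mouse arrays. The shTRPV4 group (2 arrays) expressed a short hairpin RNA that targets Trpv4, the gene of a cation channel that lets calcium in, and the shGFP group (2 arrays) carried a control hairpin. Both lines were made by retroviral infection of preadipocytes followed by puromycin at 2 µg/ml for 2 days. All cells then received 850 nM insulin for 8 days, with rosiglitazone, a drug that activates PPAR gamma, during the first 2 days, so both groups share an agonist of the receptor that acts on many of these genes. The labels do not say whether replicates were separate infections or cultures, so p-values reflect array-to-array spread that may be technical.

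The deposited values are linear intensities, with array medians between 129.4 and 144.0. Differences below are shTRPV4 minus shGFP of quantile-normalized log2(intensity + 16) values, and a gene is said to have risen or fallen where the Benjamini-Hochberg adjusted p of limma over all probe sets was under 0.05. Trpv4 itself read 80.1 and 79.5 in the arrays labelled shTRPV4, against 43.7 and 93.8 in the arrays labelled shGFP (difference 0.32, 95% interval -0.55 to 1.19, limma adjusted p = 0.55). The knockdown was therefore not seen on these arrays, and the groups go by their labels. The adipocyte genes Adipoq and Fabp4 read at least 11785 on every array, high readings for the fat cell markers of the labelled cell type.

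Peroxisomal genes were mostly higher in the arrays labelled shTRPV4. Of the 31 genes measured, 9 rose, 0 fell and 22 did not pass the test. The members that rose were 29% of those measured, where in the whole series 5.33% of genes rose and 6% fell. The members were mostly bright, with 28 of 31 above the median probe set in level, against 6820 of 12393 genes. With the dimmer 50 percent of probe sets left out, 19 of 28 members (67.9%) rose and 1 fell, where 25.2% of 6820 genes rose and 20.1% fell. With the dimmest 25 percent left out, 15 of 30 members (50%) rose and 1 fell, where 13.5% of 9633 genes rose and 12.4% fell. By limma 0 members and 0 genes of the series passed when any 1 of the 4 arrays was left out, and likewise when replicate numbers were fitted as a block. With all 4 arrays and no block, 21 members were higher and 1 was lower at an unadjusted limma p under 0.05. At that threshold 2215 of the 12393 genes were higher and 1888 lower. The difference was positive for 28 of the 31 (90.3%), against 53.5% of all 12393 genes. Its median was 0.38 in the members, against 0.02 over all genes. In 23 of the 31 genes both shTRPV4 arrays lay above both shGFP arrays after normalization, and in 3 both lay below, where the background shares of such genes are 33.2% above and 27.7% below. The Pex genes had 4 of 10 risen and a median of 0.31, and the enzymes with the Abcd transporters had 5 of 21 risen and a median of 0.38. Whether these 2 shares differ was not tested.

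**Figure D1:**
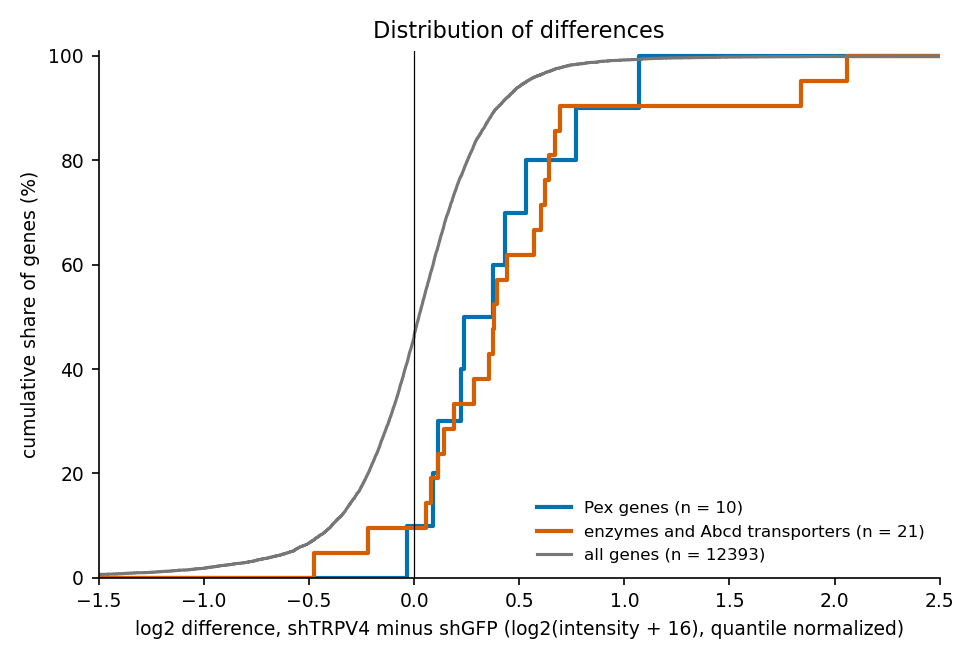
Cumulative share of genes (vertical axis, percent) by log2 difference, shTRPV4 minus shGFP (horizontal axis, log2(intensity + 16), quantile normalized), for the 10 Pex genes, the 21 enzymes and Abcd transporters, and all 12393 genes, cut at -1.5 and 2.5. The member curves cross 50% near their medians of 0.31 and 0.38, against 0.02 for all genes, and the Pex curve ends at 1.07, while the curve of all genes runs on to 3.41, outside the plot.

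The number of calls depended on how the arrays were scaled, as did the split over all genes. With the values as deposited 4 members rose, and 380 genes rose and 718 fell over the series. With median centring 15 members rose, and 1036 genes rose and 709 fell, against 661 and 744 after quantile normalization. The 4 members that rose under all 3 scalings were Pex11a, Pex16, Acaa1b and Ephx2, while Pex6, Pex13, Abcd2, Acaa1a and Hacl1 did not pass with the values as deposited.

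In the same arrays, some markers of fat cell maturity moved too, and others did not. Of 14 adipocyte markers measured out of 16 listed, 6 rose and 1 fell, where 5.33% of all genes rose and 6% fell. Their summed deposited intensity was 77460 and 81098 in the shTRPV4 arrays, against 67109 and 66117 in the shGFP arrays. The sums are of values before normalization and weigh most on Fabp4, Lpl and Adipoq, none of which passed. Retn (difference 1.90), Slc2a4 (1.16) and Cebpa (0.88) had the largest rises, and Lep was the gene that fell, with 3.93 and 4.92 in the shTRPV4 arrays, under the offset of 16, against 68.3 and 43.9 in the shGFP arrays, so the size of its difference depends on the offset. The other 7 adipocyte markers did not pass, with differences from -0.14 (Cidec) to 0.43 (Lipe). Adipoq (0.16), Cd36 (0.10) and Lpl (-0.05) were among them. Of 13 preadipocyte and fibroblast markers measured out of 14, 7 fell and 0 rose, led by Sfrp2 (-2.35), Lum (-2.28) and Dcn (-1.68). Their summed intensity was 73755 and 75681 in the shTRPV4 arrays, against 86267 and 89472 in the shGFP arrays. Of 11 macrophage markers measured out of 12, 2 rose and 3 fell, 6 differences were positive and 5 negative, and the median was 0.10. Only 1 of the 11 lay above the median probe set in level. Their summed intensities were 854.6 and 780.0 in the shTRPV4 arrays, against 1105 and 1184 in the shGFP arrays. Those sums weigh most on 2 that fell, Cd14 (242.1 and 204.4, against 460.8 and 469.8) and Lyz2 (63.8 and 42.8, against 234.8 and 271.0). Csf1r also fell (-0.85). The 2 that rose were Cd68 (1.49) and Cx3cr1 (1.19). Cd68 read 154 and 182 in the shTRPV4 arrays, against 41.1 and 66.7 in the shGFP arrays. The part of these markers in the peroxisomal results was not tested. In bulk RNA, fewer cells of a type and less RNA per cell cannot be told apart.

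Among the Pex genes the division factor moved most. Pex11a, which elongates the peroxisomal membrane before the organelle divides, read 2128 and 2175 in the shTRPV4 arrays, against 1034 and 1043 in the shGFP arrays. The shTRPV4 readings were about double the shGFP ones, and replicates of a group lay close together. The difference was 1.07 (SE 0.06, 2.10-fold, limma adjusted p = 0.0155). Its dimmer probe set gave 1.12 (SE 0.07, adjusted p = 0.0155), so both readings of the transcript rose alike.

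Peroxisomal membrane proteins are inserted by Pex3, Pex16 and Pex19, and of these Pex16 rose. Pex16 read 772.8 and 819.3 in the shTRPV4 arrays, against 491.9 and 458.9 in the shGFP arrays, with no overlap (0.77, SE 0.09, limma adjusted p = 0.0284). Its other probe set, near the offset of 16 on every array (17.1 and 27.8 in shTRPV4, 22.8 and 26.5 in shGFP), showed no measurable difference (-0.07). Averaging both gave 0.35 and lost the call (adjusted p = 0.103). Pex3, the membrane anchor that receives Pex19 with its cargo, read 735.2 and 794.8 in the shTRPV4 arrays, against 541.6 and 622.3 in the shGFP arrays. These groups did not overlap either, yet the difference of 0.43 missed the threshold (SE 0.08, limma adjusted p = 0.0544), and its second probe set gave 0.10. Pex19, the soluble chaperone of membrane proteins, had overlapping groups on both probe sets, with differences of 0.09 and 0.15 and a 95% interval of -0.17 to 0.35 for the brighter one.

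Enzymes of the peroxisomal interior enter by a cycle of receptors, a docking complex and an export machinery. Pex5 and Pex7 are the receptors that recognise the targeting signals at the carboxyl and amino ends of cargo. Pex5 differed by 0.24 (95% interval 0.01 to 0.47, limma adjusted p = 0.15) and Pex7 by 0.22 (0.04 to 0.41, adjusted p = 0.12), and in both the shTRPV4 arrays lay above the shGFP arrays after normalization. Of the docking pair, Pex13 rose by 0.38 (SE 0.06, limma adjusted p = 0.04998), with 2424 and 2624 in the shTRPV4 arrays, against 1937 and 2014 in the shGFP arrays. That call sits at the threshold. Its dimmer probe set had a larger difference of 0.64 that did not pass (adjusted p = 0.0516), and the average of both passed (0.51, adjusted p = 0.0285). Pex14, the other docking protein, had overlapping groups (0.11, 95% interval -0.20 to 0.43).

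Spent Pex5 is tagged by the ligases Pex2, Pex10 and their partners and pulled out of the membrane with the help of the ATPase Pex6. Pex6 read 1262 and 1317 in the shTRPV4 arrays, against 851.8 and 959.8 in the shGFP arrays. The difference was 0.53 (SE 0.07, limma adjusted p = 0.0346). Its 5 probe sets did not all move together. The 3 brightest rose, by 0.53, 0.69 and 0.55, but the dimmer ones differed by -0.15 (adjusted p = 0.20) and 0.01 (adjusted p = 0.96). Of the risen ones, 2 end in _x_at or _s_at, a kind that can also read related transcripts, and the third (498.9 and 490.9 in shTRPV4, 354.7 and 338.0 in shGFP) does not. Pex2 was the Pex gene with a negative difference, at -0.04 (95% interval -0.22 to 0.15), which was 0.032 with median centring. It read 1143 and 1181 in the shTRPV4 arrays, against 1227 and 1207 in the shGFP arrays.

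**Figure D2:**
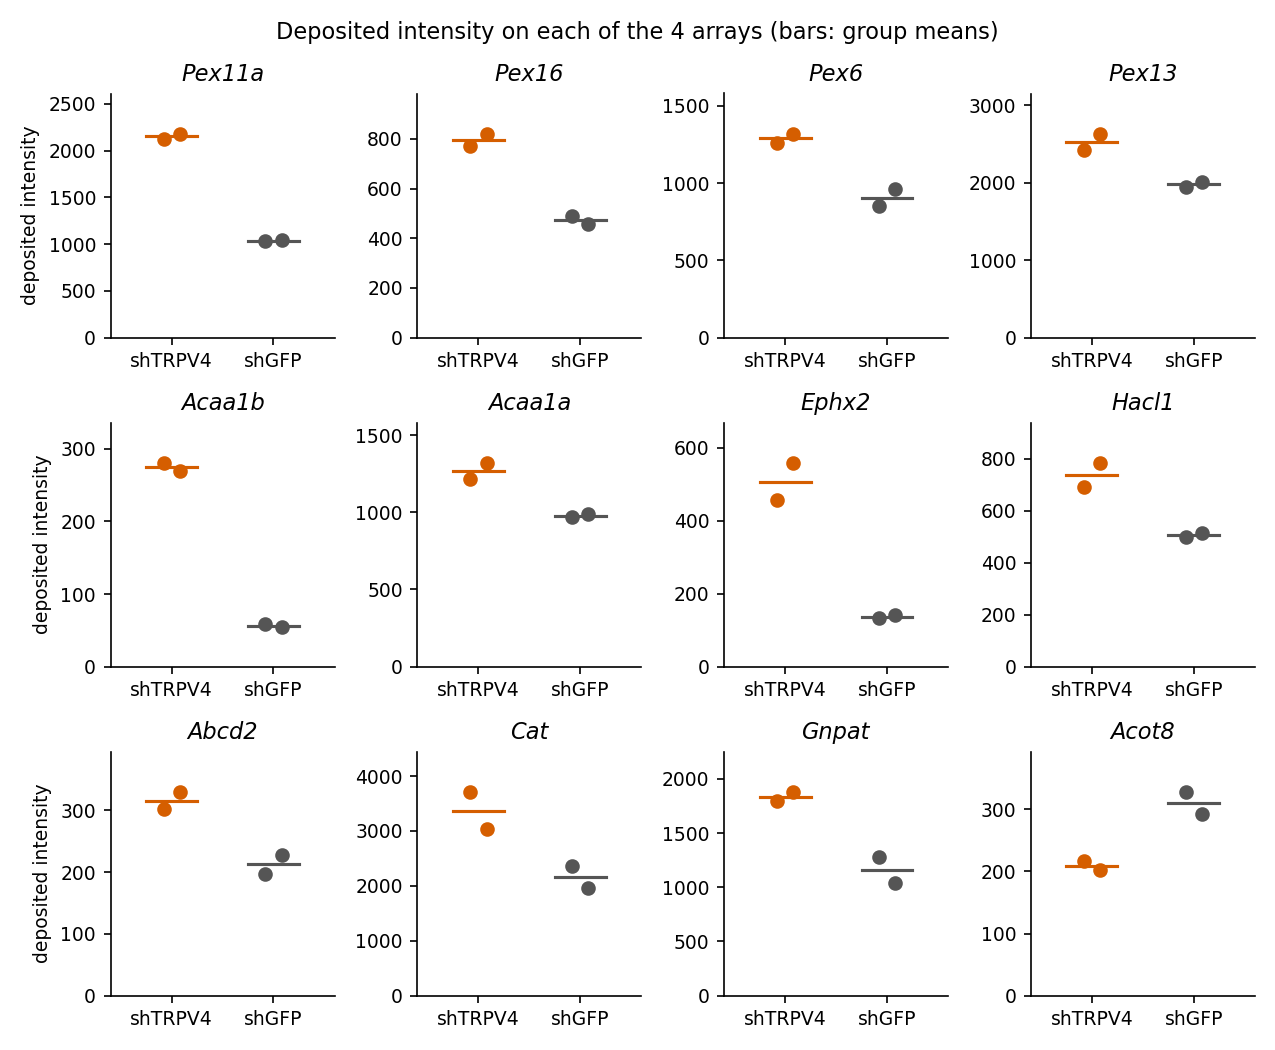
Deposited intensity (vertical axis, linear from 0, each panel with its own scale) on each array for the 9 members that rose and for Cat, Gnpat and Acot8, with shTRPV4 arrays on the left, shGFP arrays on the right and bars at group means. In each of the 12 panels the 2 groups are apart, with Acot8 the one that is lower in shTRPV4. The 9 are shown because they passed, so their separation adds nothing to the test.

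Fatty acyl-CoA enters the peroxisome through half-transporters of the Abcd family. Abcd2, which carries very long chain and polyunsaturated acyl-CoA, read 301.7 and 329.4 in the shTRPV4 arrays, against 196.8 and 228.5 in the shGFP arrays. It rose by 0.60 (SE 0.08, limma adjusted p = 0.0363). Abcd3, which carries branched and dicarboxylic acyl-CoA, did not pass (0.12, 95% interval -0.06 to 0.29), with 2211 and 2310 in shTRPV4 arrays and 2112 and 2147 in shGFP arrays.

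The chain-shortening cycle runs through an acyl-CoA oxidase, a bifunctional hydratase and dehydrogenase, and a thiolase, and the member that moved most was a thiolase. Acaa1b, an inducible thiolase of rodents, read 280.2 and 268.9 in the shTRPV4 arrays, against 59.1 and 54.2 in the shGFP arrays. It rose 4.17-fold on the log2(intensity + 16) scale (2.06, SE 0.08, limma adjusted p = 0.0147). With shGFP readings within a few times the offset, the size depends on it, at 2.33 with an offset of 1 and 1.53 with 64.

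Acaa1a, the closely related thiolase, also rose, with a smaller difference. It read 1216 and 1318 in the shTRPV4 arrays, against 968.9 and 987.8 in the shGFP arrays (0.40, SE 0.07, limma adjusted p = 0.0488). Both Acaa1a probe sets end in _x_at, and the other did not pass (0.19, adjusted p = 0.28). Their mean did not pass either (0.29, adjusted p = 0.0855). A further 2 probe sets are annotated to Acaa1a and Acaa1b together and lie outside the rule. They differed by 0.35 (adjusted p = 0.0550) and 0.26 (adjusted p = 0.12). How much Acaa1b transcript the Acaa1a probe sets read was not tested.

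The regions just upstream of 4 members are printed to show how differently genes of this list begin: the thiolase pair Acaa1b and Acaa1a, Pex11a, the Pex gene that moved most, and Cat, the only member window with a repeat described below. Each holds the 250 bases before the RefSeq transcription start, 5′ to 3′ on the gene's strand, from GRCm38.p6. Capitals mark the CCAAT box, the GC box of letters GGGCGG and the nuclear receptor half-site of letters AGGTCA, each sought on both strands. In Cat they also mark the best match to AGGTCANAGGTCA with at most 2 mismatches, the spaced repeat of that half-site that PPAR and RXR pairs are known to bind.
Acaa1b: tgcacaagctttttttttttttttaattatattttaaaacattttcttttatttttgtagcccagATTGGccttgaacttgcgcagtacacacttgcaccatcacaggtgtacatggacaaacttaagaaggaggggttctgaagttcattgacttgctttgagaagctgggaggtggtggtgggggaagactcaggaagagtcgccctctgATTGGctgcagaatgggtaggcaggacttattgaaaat
Acaa1a: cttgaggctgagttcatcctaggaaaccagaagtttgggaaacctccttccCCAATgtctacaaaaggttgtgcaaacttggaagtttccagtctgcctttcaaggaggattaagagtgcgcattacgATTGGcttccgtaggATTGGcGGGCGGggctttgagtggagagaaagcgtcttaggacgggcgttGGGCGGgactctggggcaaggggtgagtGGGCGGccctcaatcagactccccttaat
Pex11a: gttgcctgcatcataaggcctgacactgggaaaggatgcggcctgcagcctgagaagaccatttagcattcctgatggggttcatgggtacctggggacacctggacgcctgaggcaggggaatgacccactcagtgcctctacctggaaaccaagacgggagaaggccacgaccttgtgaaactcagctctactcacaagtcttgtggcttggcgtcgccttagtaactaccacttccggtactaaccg
Cat: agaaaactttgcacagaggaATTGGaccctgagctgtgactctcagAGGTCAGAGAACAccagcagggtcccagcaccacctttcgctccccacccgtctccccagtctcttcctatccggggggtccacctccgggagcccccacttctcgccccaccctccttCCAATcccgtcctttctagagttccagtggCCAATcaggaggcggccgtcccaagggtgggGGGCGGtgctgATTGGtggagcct
Acaa1b, at chr9:119157094-119157343 on the minus strand, has 2 CCAAT boxes and no GC box, whereas Acaa1a, at chr9:119341044-119341293 on the plus strand, has 3 of each. Pex11a, at chr7:79743132-79743381 on the minus strand, holds none of these letters in the window. Cat, at chr2:103485154-103485403 on the minus strand, has 4 CCAAT boxes, 1 GC box and a half-site that lies within the repeat match, 204 bases before the start. RefSeq windows matched 26 of the 33 members, 30 windows in all. A CCAAT box was in 14 of the 30 (46.7%), against 33.8% of all 32851 windows, a GC box in 21 (70%), against 32.7%, and a half-site in 2 (6.67%), against 14%. The repeat with at most 2 mismatches was in 1 of the 30 (3.33%), against 3.24% of all windows, and without mismatches in 0 of the 30, against 0.0335%. The median GC content was 60.0% in member windows and 52.4% in all windows.

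The other enzymes of the core cycle had positive differences that did not pass. Hsd17b4, the bifunctional enzyme for branched and very long chains, differed by 0.38 (limma adjusted p = 0.0725) on a probe set ending in _x_at and by -0.04 on the other (952.3 and 983.5 in shTRPV4, 1033 and 990.1 in shGFP). Scp2, which encodes a thiolase of branched chains and a sterol carrier protein, differed by 0.14 to 0.35 over its 4 probe sets with none past the threshold. Acox3, an oxidase of branched chains, read 60.2 and 87.6 in the shTRPV4 arrays, against 45.1 and 43.2 in the shGFP arrays (0.62, 95% interval 0.14 to 1.10, adjusted p = 0.11). Ehhadh, the other bifunctional enzyme, read at most 14.0 on any array, under the offset of 16, so its level relative to background is unknown.

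Of the 5 auxiliary enzymes that handle double bonds and methyl branches, all had positive differences and none passed. Ech1, a dienoyl-CoA isomerase, came nearest, with 2042 and 2337 in the shTRPV4 arrays, against 1651 and 1640 in the shGFP arrays (0.44, SE 0.08, limma adjusted p = 0.0551). Eci2, an enoyl-CoA isomerase, differed by 0.28 (adjusted p = 0.0953) with groups that did not overlap. The reductase genes Pecr and Decr2 differed by 0.19 and 0.08 (Decr2 by -0.044 without shGFP replicate 2), and Pecr's dimmer probe set by -0.13. Amacr, the racemase of methyl-branched acyl-CoA, had overlapping groups (0.06, 95% interval -0.14 to 0.25).

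Branched chains such as phytanic acid are first cut back by one carbon in the alpha-oxidation pathway, and its lyase gene rose. Hacl1, the hydroxyacyl-CoA lyase, read 689.9 and 782.9 in the shTRPV4 arrays, against 498.2 and 515.0 in the shGFP arrays (0.57, SE 0.08, limma adjusted p = 0.0351). Phyh, the hydroxylase of the step before, had groups that did not overlap but missed the threshold (0.36, SE 0.07, adjusted p = 0.0658).

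Ether lipids such as plasmalogens are begun in peroxisomes, and the 2 measured genes of that route had opposite signs. Gnpat, the acyltransferase of the first step, read 1792 and 1877 in the shTRPV4 arrays, against 1282 and 1041 in the shGFP arrays. The difference was 0.69, with a wide spread in shGFP (SE 0.14, limma adjusted p = 0.0650). Far1, the reductase that supplies fatty alcohols, differed by -0.22 on its brightest probe set (1199 and 1146 in shTRPV4, 1422 and 1362 in shGFP, adjusted p = 0.19). Its 5 probe sets ran from -0.31 to 0.08, with 3 negative and 2 positive, and none passed.

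Among enzymes that transfer or release acyl groups, Crat and Acot8 also pointed in opposite directions. Crat, a carnitine acetyltransferase shared with mitochondria, read 444.4 and 419.8 in the shTRPV4 arrays, against 303.7 and 251.8 in the shGFP arrays (0.67, SE 0.14, limma adjusted p = 0.0697). Acot8, an acyl-CoA thioesterase, read 216.7 and 201.5 in the shTRPV4 arrays, against 327.4 and 292.8 in the shGFP arrays. It had the most negative difference of the 31 genes, -0.47, with no overlap between groups, and did not pass (95% interval -0.81 to -0.14, adjusted p = 0.0892). It passed as lower when the dimmest 25 or 50 percent of probe sets were dropped.

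Ephx2, the soluble epoxide hydrolase, which opens fatty acid epoxides, was the second most changed member. It read 457.4 and 558.1 in the shTRPV4 arrays, against 133.5 and 140.6 in the shGFP arrays, a 3.58-fold rise (1.84, SE 0.11, limma adjusted p = 0.0155). Cat, which breaks down the hydrogen peroxide that acyl-CoA oxidases make, was less clear. Its brightest probe set read 3707 and 3035 in the shTRPV4 arrays, against 2365 and 1968 in the shGFP arrays, apart but scattered (0.64, SE 0.18, adjusted p = 0.11). The other probe set read 2585 and 2496 in shTRPV4, against 1537 and 1559 in shGFP, and passed (0.73, SE 0.07, adjusted p = 0.0228), as did the average of both (0.69, adjusted p = 0.0400).

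**Figure D3:**
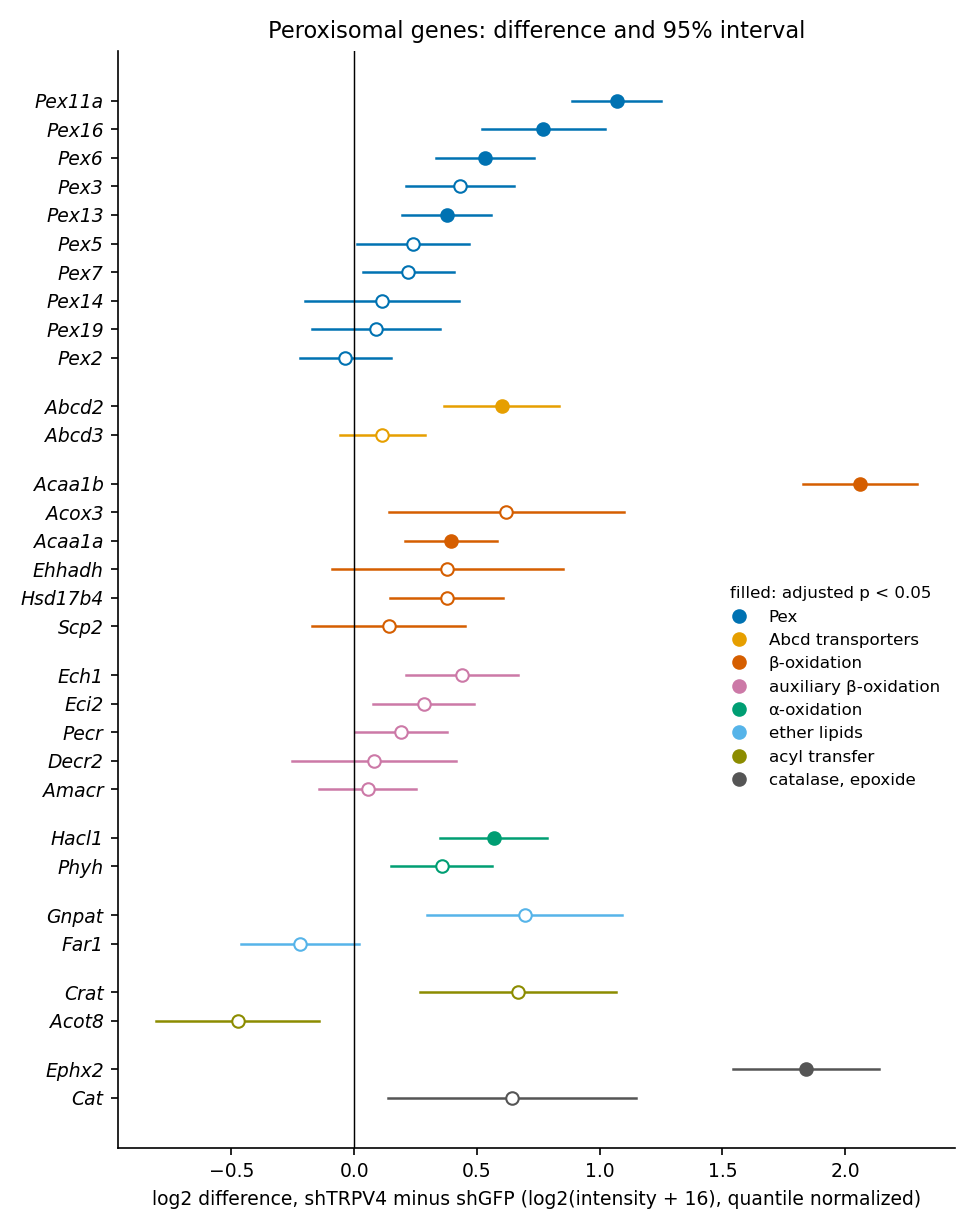
Log2 difference, shTRPV4 minus shGFP (horizontal axis), with its 95% interval from limma (lines) for the 31 members by role, each on its representative probe set. Filled points passed an adjusted p under 0.05, 9 in all. Acaa1b, Ephx2 and Pex11a lie above 1, and Acot8, Far1 and Pex2 lie below 0 (Pex2 at 0.032 with median centring).

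Over all 53 member probe sets, 13 rose and 0 fell, where 4.54% of all 22626 probe sets rose and 5.36% fell. The sign was positive in 44 (83%) and negative in 9, where 52.5% of all probe sets were positive. Probe sets of 1 gene disagreed in sign for Pex6, Pex16, Hsd17b4, Pecr and Far1.

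**Figure D4:**
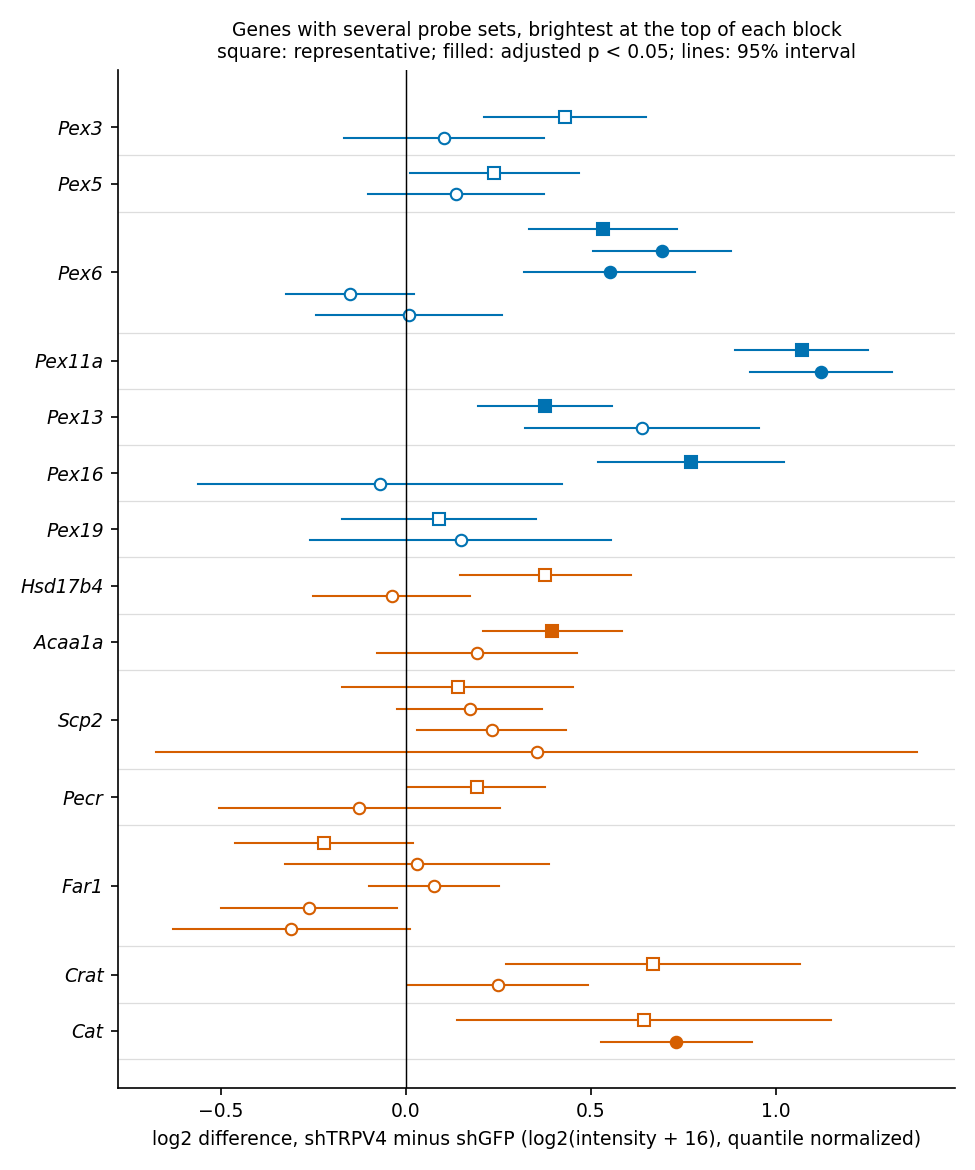
Log2 difference, shTRPV4 minus shGFP (horizontal axis), with 95% intervals for each probe set of the 14 members that have several, brightest first within a gene. Squares are representative probe sets, circles the others, and filled symbols passed. The Pex11a pair lies near 1.1, while the 5 Pex6 probe sets run from -0.15 to 0.69.

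Other peroxisomal genes outside the 33 were also measured. Of 44 further enzymes, transporters and membrane proteins with at least some peroxisomal location, 35 were measured. Of these 9 rose and 1 fell, where 5.33% of all genes rose and 6% fell. Their difference was positive in 23 (65.7%), against 53.5% of all genes, with a median of 0.10. The largest differences among those that passed were in Agxt, the glyoxylate aminotransferase (-0.97, with 11.3 and 9.48 in shTRPV4 arrays, under the offset, against 35.6 and 38.2 in shGFP arrays), and Pmvk, a mevalonate pathway kinase (0.96). Then came Abcd4, a family member placed in lysosomes in later work (0.75), the malonyl-CoA decarboxylase gene Mlycd (0.73), the aspartate oxidase gene Ddo (0.57) and Pxmp2, a channel of the peroxisomal membrane (0.56). Of 11 further genes of peroxin function and organelle division, 7 were measured and 0 passed with limma. At an unadjusted limma p under 0.05, 4 of these were higher and 0 lower, where 2215 of 12393 genes were higher and 1888 lower. All 7 had positive differences with no overlap between groups, with a median of 0.24, where 33.2% of all genes lay above without overlap. The fission adaptor genes Mff (0.45, adjusted p = 0.13) and Fis1 (0.38, adjusted p = 0.0743), shared with mitochondria, had the largest differences of these 7. Their names were chosen after their values were seen.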

How the data were processed

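The authors deposited 1 linear intensity per probe set and array. How they summarised, background-corrected and scaled them is not given in the sources used here. Per the labels' protocols biotinylated cRNA was made by the standard Affymetrix procedure. The members and gene lists were chosen with earlier results of these data known. Values were taken as log2(intensity + 16). Array medians on that scale spanned 0.14, over the limit of 0.1 that was set, so arrays were quantile normalized, which left 85 of 22626 probe sets with no spread. The groups were compared by a linear model and eBayes in limma (version 3.58.1, R version 4.3.3) with 2 residual and 1.80 prior degrees of freedom, adjusted over all probe sets. The procedure was run on simulated data with independent noise for each probe set. Those data hold no effect shared across an array, and the outcome is not given here. A gene takes its brightest probe set. With 2 arrays a group an exact permutation test cannot go below p = 0.33. The number of arrays limits the precision. Every member was named. Of the other lists, up to 6 called genes with the largest differences were, along with some genes that did not pass. Genes came from the platform annotation. No array coordinates are used.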

Additional observations from a re-analysis of the deposited data

How the results depend on the processing

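Of the 31 members, 28 kept their sign under every alternative that gave a value. Ehhadh had none under either percentile filter, Acox3 and Acaa1b none under the 50th percentile filter, and Acaa1a none without probe sets ending in _x_at or _s_at. The exceptions were Pex2 with median centring (0.032), Hsd17b4 on its probe set not ending in _x_at (-0.037) and Decr2 without shGFP replicate 2 (-0.044, in a range from -0.044 to 0.21 when each array is left out). Counts moved more than signs. The members that rose numbered 9, and 4 with values as deposited, 15 with median centring, 3 with an offset of 1 and 16 with an offset of 64. They numbered 15 and 19 without probe sets under the 25th and 50th percentile (fewer probe sets tested, with 1 member lower in each, Acot8) and 17 with an intensity trend. Of the Pex genes, 2 rose as deposited, 1 with an offset of 1 and 7 above the 50th percentile. Of the enzymes and transporters 2 rose as deposited, 10 with median centring, 2 and 11 with offsets of 1 and 64, 10 and 12 with the percentile filters (1 lower in each) and 11 with the trend. Over all genes 380 rose as deposited, 1036 with median centring, 116 and 1356 with offsets of 1 and 64, 1298 and 1716 with the filters and 1408 with the trend. Those that fell numbered 271 and 1222 with the offsets, 1190 and 1370 with the filters and 1237 with the trend. The cause of the moves with scaling and offset was not tested. With the replicate number as a block, 0 genes passed over the series and 0 members did. At an unadjusted limma p under 0.05, 20 members were higher and 2 lower, where 4030 of 12393 genes differed in either direction. The labels do not pair the arrays by number, and same-numbered arrays deviated together with r = 0.12 over probe sets. Without any 1 array, each of the 4 fits has 1 residual degree of freedom. Across these fits the members' median difference ran from 0.36 to 0.40, against 0.02 over all genes.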

Other observations

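Nuclear receptors of the PPAR and RXR families and their cofactors were also on the arrays. Of 11 measured out of 14 listed, 3 rose and 1 fell, where 5.33% of all genes rose and 6% fell. The median difference was 0.22, against 0.02 over all genes. Ppargc1b, a coactivator, read 826.0 and 826.1 in the shTRPV4 arrays, against 360.7 and 394.5 in the shGFP arrays (1.15, SE 0.07, limma adjusted p = 0.0155). Nrip1, a corepressor, rose by 1.04 (2400 and 2514 in shTRPV4, 1216 and 1191 in shGFP). Pparg, which is also counted among the adipocyte markers that rose, rose by 0.45. Med1, a Mediator subunit, fell by 0.73 on the log2 scale. Ppara, a receptor named after peroxisome proliferators, read 58.1 and 48.1 in shTRPV4 arrays, against 43.4 and 48.3 in shGFP arrays. It did not pass (limma adjusted p = 0.24).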
